A study of Mus musculus with 2 samples.

Results

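The 10 genes described here encode collagens and other proteins of basement membranes and their surroundings: the fibrillar collagen chains Col1a1, Col1a2, Col3a1 and Col5a1, the type IV collagen chains Col4a1 and Col4a2, the laminin chains Lama1 and Lamc1, and the matrix glycoproteins Sparc and Fn1. They were chosen by name, with no limit on level, out of 12393 genes that had a probe set assigned to 1 gene alone, and they were read by 19 of 20380 such probe sets. The cells were mouse iPSCs, induced pluripotent stem cells made by reprogramming somatic cells, profiled as 1 hybridized sample and 1 live sample with 1 array each. Both samples carried the same source name and came from serum medium with 2i, inhibitors of the MEK and GSK3 kinases that keep mouse cells naive. The labels give neither the line nor strain, nor what the cells were hybridized with. The comparison asks how far the transcript profile of hybridized cells departs from that of live cells. Since each group had 1 array, there was no replicate error and no test of the difference, so every difference, given as log2 hybridized minus live, compares these preparations only.

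Basement membranes are thin sheets of extracellular matrix under epithelia. Laminins and type IV collagen each assemble into a network there, and nidogen and the proteoglycan perlecan join the networks to each other. Fibrillar collagens instead form the fibres of connective tissue and are made chiefly by fibroblasts and other mesenchymal cells. All collagens are built from alpha chains that wind into a helix inside the endoplasmic reticulum, where dedicated hydroxylases and chaperones modify and fold them before secretion. Pluripotent cells of the early embryo make laminin and fibronectin, and the endoderm next to them deposits basement membrane.

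On these arrays the 10 genes lay in different ranges of signal. Sparc, Fn1, Lamc1 and Lama1 were bright and differed by less than 2-fold between the hybridized and the live array. Col5a1, Col4a2, Col1a1 and Col4a1 were dim and were at least 2-fold lower on the hybridized array at their brightest probe set. Col1a2 and Col3a1 lay near the lower end of the scale on both arrays. Values are log2 GCRMA values as deposited, a gene is represented by its brightest probe set, by the mean over both arrays, and a mean of 5 served as the level from which differences were counted. Signals of different probe sets depend on their probes, so no gene's level is set against another's here beyond this grouping.

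**Figure D1:**
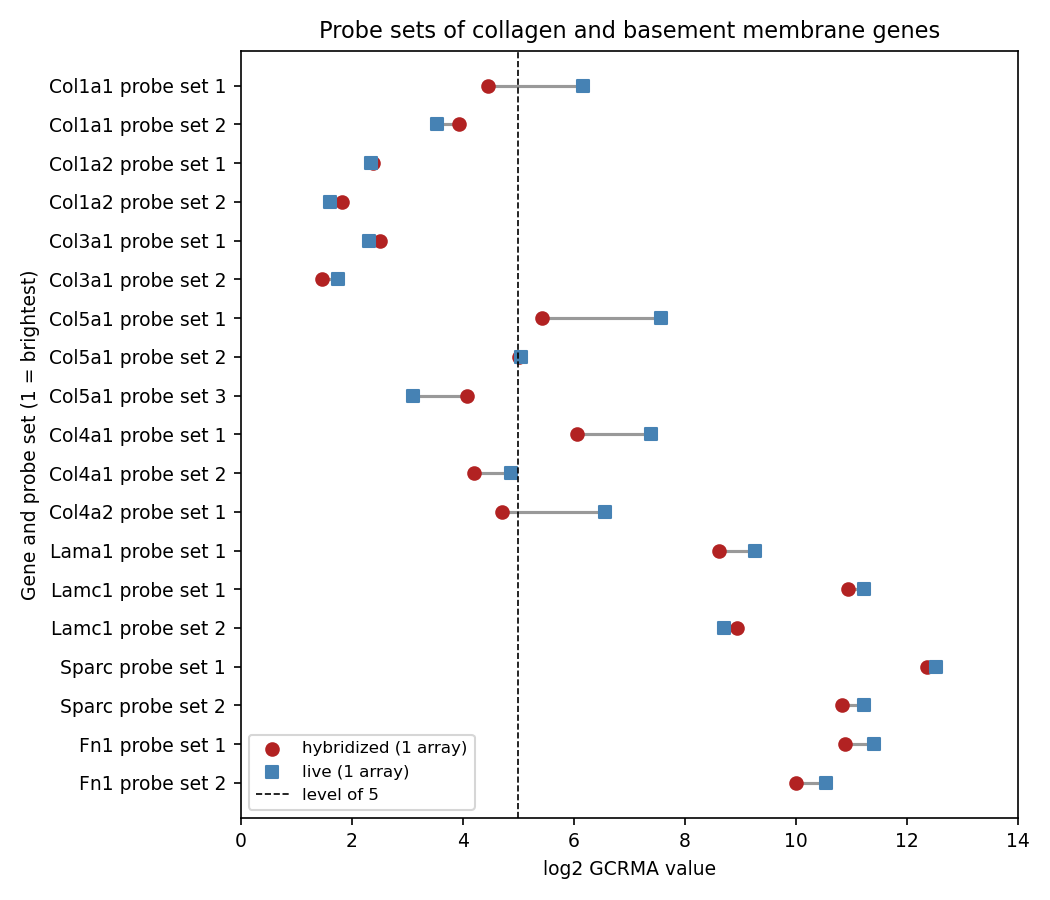
Log2 GCRMA values (horizontal axis) of the 19 probe sets of the 10 genes (rows, probe set 1 being the brightest of its gene) on the hybridized array (red circles) and the live array (blue squares), joined by a grey line. The dashed line marks the level of 5. The longest lines belong to the first probe sets of Col5a1, Col4a2, Col1a1 and Col4a1, where the hybridized value lies to the left.

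Of the 8 members that reached a mean of 5, 4 were at least 2-fold lower and 0 were 2-fold higher on the hybridized array. Among all 7262 genes at that level, 15.4% were 2-fold lower and 8.43% were 2-fold higher. All 8 were below 0, against 58.5% of all genes at the level, and their median difference was -0.995, against -0.17. Col1a1 and Col4a2 had hybridized values under 5 and reached the level through the live array, so neither the count of 4 nor the median is evidence for a shift of the group. With a limit of 5 on both arrays, 2 of 6 genes were 2-fold lower, against 13.9% of all genes so limited. The split of all genes depended on the centring: 9.75% were 2-fold lower and 11.5% higher after a loess correction on level. When the arrays were instead centred on their spiked hybridization controls, a shift of 0.80 for every gene, 2.84% were lower and 31.8% higher.

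The count also moved with signal. The 4 that were 2-fold lower had means between 5 and 7, where 28.6% of 1407 genes of that range were 2-fold lower and 7.6% higher. The 4 brighter members, all with means above 7, gave 0 differences of 2-fold. Lama1 lay in the range from 7 to under 9, where 20.6% of genes were 2-fold lower and 12.4% higher. In the range of Sparc, Fn1 and Lamc1, from 11 upward, 3.48% of genes were 2-fold lower and 2.83% higher.

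**Figure D2:**
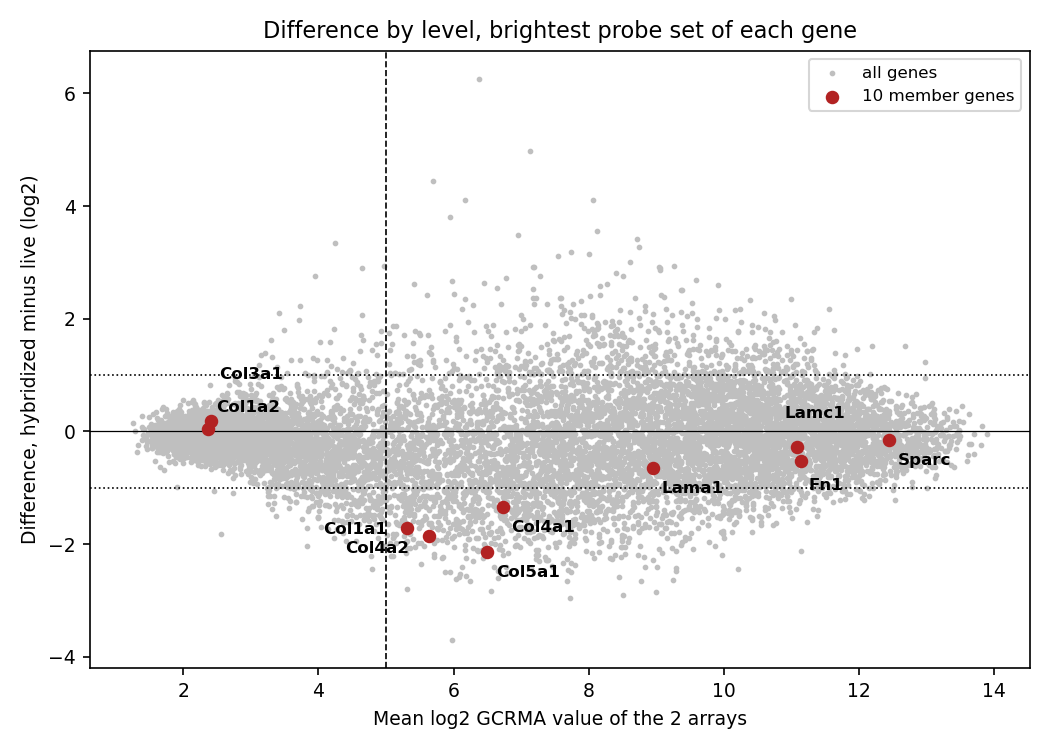
Difference between the hybridized and the live array (vertical axis, log2) against the mean log2 GCRMA value of the 2 arrays (horizontal axis) for 12393 genes (grey) and the 10 genes described here (red, named), each at its brightest probe set. Dotted lines mark 2-fold and the dashed line the level of 5. Col5a1, Col4a2, Col1a1 and Col4a1 lie below the lower dotted line at means under 7, and the 4 brighter genes lie between the dotted lines.

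Type IV collagen is the network-forming collagen of basement membranes, and its most widespread form is assembled from the chains encoded by Col4a1 and Col4a2. These genes lie head to head on chromosome 8 on opposite strands. They are the one pair among the 6 genes with a RefSeq promoter window whose windows meet, so both promoter windows are shown. Each runs from 250 bases before to 50 bases after a start site in RefSeq, build GRCm38.p6, at chr8:11312777-11313076 on the minus strand for Col4a1 and at chr8:11312555-11312854 on the plus strand for Col4a2. Each is written 5′ to 3′ on its own gene's strand, with the 78 bases that both windows cover in capitals.
Col4a1: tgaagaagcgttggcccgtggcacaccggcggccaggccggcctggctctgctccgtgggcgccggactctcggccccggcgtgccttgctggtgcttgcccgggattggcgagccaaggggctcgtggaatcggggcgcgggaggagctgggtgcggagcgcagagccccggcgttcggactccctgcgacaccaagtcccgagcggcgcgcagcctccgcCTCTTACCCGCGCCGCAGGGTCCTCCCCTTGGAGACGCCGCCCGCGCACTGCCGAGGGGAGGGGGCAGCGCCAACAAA
Col4a2: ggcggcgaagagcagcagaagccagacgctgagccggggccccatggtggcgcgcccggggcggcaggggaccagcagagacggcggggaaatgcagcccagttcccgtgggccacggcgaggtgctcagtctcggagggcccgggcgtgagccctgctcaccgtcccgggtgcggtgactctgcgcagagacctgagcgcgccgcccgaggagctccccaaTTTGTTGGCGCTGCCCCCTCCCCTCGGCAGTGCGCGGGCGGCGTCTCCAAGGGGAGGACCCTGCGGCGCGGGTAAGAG
The capitals of one sequence are the reverse complement of the other's. The start sites used are 21 bases apart, and the transcripts overlap over 22 positions there. On both strands, each window held 1 match to CCAAT, a motif present in 37.4% of 32851 RefSeq windows of the same length. The window of Col4a1 held 1 match to the GC box GGGCGG and that of Col4a2 held 3, where 35.7% of all windows had at least 1. Neither held TATAAA, which 13.6% of windows had, and no matches overlapped. The windows had 37 CpG dinucleotides for Col4a1 and 33 for Col4a2, against a median of 7. These matches describe the letters of the windows only.

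Both chains were lower on the hybridized array. Col4a1 (Entrez 12826) read 6.06 on the hybridized array and 7.40 on the live array at its brightest probe set, a difference of -1.34 or 2.53-fold. Its second probe set, listed under the same sequence record, was under the level at 4.21 on the hybridized array and 4.86 on the live array, a difference of -0.65 in the same direction. Averaged over both, Col4a1 stood just short of 2-fold at -0.995, and it was also under 2-fold after the loess correction (-0.88) and after control centring (-0.54). Col4a2 (Entrez 12827) read 4.70 on the hybridized array and 6.56 on the live array on its only probe set, a difference of -1.86 or 3.63-fold. Averaging over probe sets and leaving out suffixed ones could not change this value, since its only probe set carries no suffix. Col4a2 stayed at least 2-fold lower after median centring (-1.79), quantile normalization (-1.8), loess (-1.35) and control centring (-1.06). None of these settings supplies a second probe set.

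Of the 4 fibrillar chains, Col5a1 and Col1a1 reached the level, and both were 2-fold lower at the brightest probe set but not at their others. Col5a1 (Entrez 12831), a chain of type V collagen, which helps to start collagen fibrils, had the lowest difference of the 10 genes. Its brightest probe set read 5.43 on the hybridized array and 7.58 on the live array, a difference of -2.15 or 4.44-fold. The second read 5.01 on the hybridized array and 5.05 on the live array, so it showed almost no difference at -0.04. Another, which comes from the same sequence record as the first, read 4.07 on the hybridized array and 3.10 on the live array, a difference of 0.97 in the opposite direction. The 3 probe sets of Col5a1 thus ran from -2.15 to 0.97, and their mean difference was -0.41.

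Col1a1 (Entrez 12842) encodes the major chain of type I collagen, the main collagen of bone, skin and tendon. Its brightest probe set read 4.46 on the hybridized array and 6.17 on the live array, a difference of -1.71 or 3.27-fold. The other probe set read 3.93 on the hybridized array and 3.53 on the live array, both under the level, and was 0.40 higher. The mean of both probe sets differed by -0.65, and control centring gave -0.91 for the brightest, so the 2-fold difference of Col1a1 was lost under each.

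Col1a2 (Entrez 12843), whose chain pairs with that of Col1a1 in type I collagen, was near the lower end of the scale. It read 2.38 on the hybridized array and 2.34 on the live array at its brightest probe set, and 1.82 on the hybridized array and 1.60 on the live array at the other. Col3a1 (Entrez 12825), the chain of type III collagen of vessels and soft tissues, read 2.50 on the hybridized array and 2.31 on the live array, and 1.46 on the hybridized array and 1.76 on the live array at its second probe set. All these values were close to the lowest value of either array, 1.02, and have no order, so neither gene was measured well enough here to give a difference. Only 1.01% of 5131 genes under the level were 2-fold higher and 3.64% 2-fold lower. The promoter window of Col3a1 had 0 CpG dinucleotides and 37.7% G and C, and that of Col1a2 had 13 and 61.0%. For comparison, the window of Col5a1 had 34 and 75.0%, and that of Sparc had 4 and 55.3%, where the median window had 52.7% G and C.

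Lama1 and Lamc1 encode the alpha and gamma chains that, with the beta chain Lamb1, form the laminin of early embryonic basement membranes. Lama1 (Entrez 16772) read 8.62 on the hybridized array and 9.27 on the live array on its only probe set, a difference of -0.65 or 1.57-fold. Lamc1 (Entrez 226519), the gamma chain shared by most laminins, read 10.95 on the hybridized array and 11.23 on the live array, a difference of -0.28. Its second probe set, also at the level and from the same sequence record, read 8.95 on the hybridized array and 8.70 on the live array, 0.25 higher. The probe sets of Lamc1 thus disagreed in sign within a narrow range, and their mean differed by -0.02. Lamb1, the beta chain, was fixed in the lists as a partner of both. It differed by -0.65 at its brightest probe set, with 8.24 on the hybridized array and 8.89 on the live array, but by 1.48 at the second, with 9.17 on the hybridized array and 7.69 on the live array. The remaining probe set of Lamb1, with a mean under the level, was 1.58 higher, so its direction was not settled by these probe sets.

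Sparc (Entrez 20692), a collagen-binding glycoprotein abundant in the basement membrane laid down by parietal endoderm, was bright on both probe sets. It read 12.37 on the hybridized array and 12.53 on the live array, a difference of -0.16, and its other probe set read 10.84 on the hybridized array and 11.23 on the live array, a difference of -0.39. Fn1 (Entrez 14268), fibronectin, the integrin ligand of many cell surfaces, read 10.88 on the hybridized array and 11.41 on the live array, a difference of -0.53. Its second probe set read 10 on the hybridized array and 10.54 on the live array, a difference of -0.54. The probe sets of Fn1 agreed to within 0.01, the closest of the 8 genes with more than 1 probe set. Centred on the hybridization controls, the differences of Lama1 (0.15), Lamc1 (0.52), Sparc (0.64) and Fn1 (0.27) turned positive, so the direction of these 4 depends on the centring. After median centring, quantile normalization and loess all 4 stayed below 0, with Sparc nearest to 0 at -0.09, -0.03 and -0.06.

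**Figure D3:**
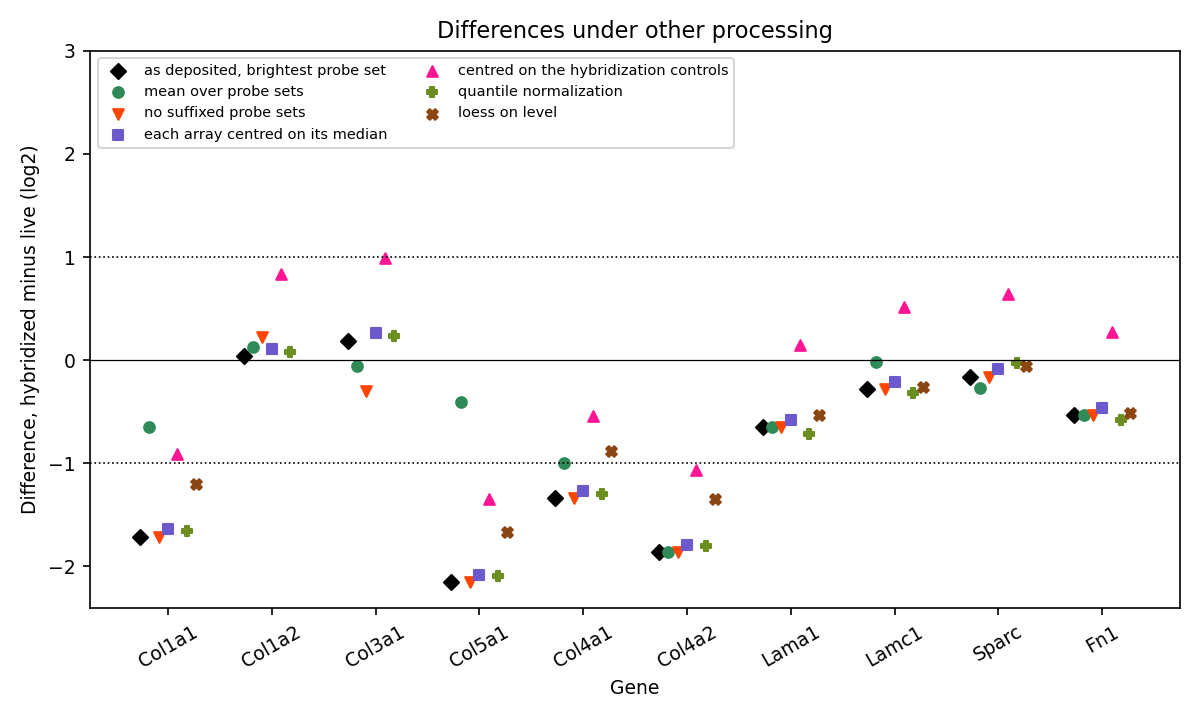
Difference between the hybridized and the live array (vertical axis, log2) for each of the 10 genes (horizontal axis) as deposited and under 6 other ways of processing (symbols; the loess fit was made on genes at the level, so Col1a2 and Col3a1 have no loess value). Dotted lines mark 2-fold. Col4a2 stays below the lower line under each, but averaging and leaving out suffixed probe sets could not change its only probe set. The mean over probe sets brings Col1a1 to -0.65 and Col5a1 to -0.41.

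Over all 19 probe sets, 12 had a mean of 5 or more. Of these, 11 were below 0 and 4 were at least 2-fold lower, while 0 were 2-fold higher. Among 11407 probe sets of single genes at the level, 12.8% were 2-fold lower and 13.1% were 2-fold higher. The other 7 probe sets, under the level, ran from -0.65 to 0.97, with 5 above 0. Shares below and above 0 were not computed over all probe sets, so these counts of sign have no background. In 5 of the 8 genes with more than 1 probe set, the second had the sign of the first, a share not computed over all genes. Among these 5, Col5a1 was near 0 on its second at -0.04, and Col1a2 lay near the lower end of the scale on both. Of the 2-fold lower members, Col5a1 alone was read at the level by another probe set, and the difference was not repeated on it. Across all 316 genes with such a second probe set that were 2-fold lower on the brightest, 121, or 38.3%, were 2-fold lower on the second too. The SD of the gap between such probe sets, divided by the square root of 2, was 0.73 over 2720 genes, which measures spread within these arrays and not between preparations.

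The other genes of the extracellular matrix were taken from lists that hold 165 genes, of which 139 had a probe set of their own here and 52 a mean of 5 or more. At least 2-fold lower on the hybridized array were 14 of the 52, or 26.9%, and 0 were 2-fold higher, beside 15.4% and 8.43% of all genes at the level. Their median difference was -0.62, against -0.17, and 39 were below 0, as were 58.5% of all genes at the level. For 8 of the 14 another probe set also reached the level, and it was below 0 for 8 and 2-fold lower for 5. Across all genes so read, 38.3% were 2-fold lower on the second too, and the share below 0 was not computed. With control centring 4 of the 52, or 7.69%, were 2-fold lower and 7, or 13.5%, were 2-fold higher, beside 2.84% and 31.8% of all genes.

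Among other basement membrane genes, 2 of 11 at the level, or 18.2%, were 2-fold lower and 0 were higher. For all genes at the level the shares were 15.4% and 8.43%, so at the brightest probe set the share of 2-fold lower genes was near that of all genes. With probe sets averaged it was 27.3%, beside 11.1% of all genes. At 1.5-fold it was 54.5%, beside 29.9%, and at 4-fold 0, beside 1.56%. Below 0 were 9 of the 11, as were 58.5% of all genes at the level. The median of the list was -0.65, against -0.17. Hspg2, which encodes perlecan, read 8.61 on the hybridized array and 10.42 on the live array, a difference of -1.81, and its second probe set differed by -1.46. Col18a1, the collagen of basement membranes from which endostatin is cut, read 8.27 on the hybridized array and 9.98 on the live array, with -1.26 at its second probe set. Both thus repeated at least 2-fold on another probe set, unlike Col5a1. Nid1, nidogen, which links laminin to type IV collagen, differed by -0.42 at 11.77 on the hybridized array and 12.19 on the live array, and was 0.43 higher on a dimmer probe set. Of 21 other collagens with a probe set of their own, 0 reached the level, which 7262 of all 12393 genes reached. The values of these 21 ran from 2.04 to 4.49 on the hybridized array and from 2.27 to 4.95 on the live array. Below 0 were 16 of them, a share not computed over all genes under the level, and their median was -0.27. Without a level limit 1 of the 21, or 4.76%, was 2-fold lower, beside 3.64% of genes under the level.

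Genes for making collagen held the most 2-fold lower members of these lists, 6 of 14 at the level, or 42.9%, with 0 higher. All genes gave 15.4% and 8.43%. Below 0 were 13, with a median of -0.79. Of the 6, Serpinh1 and Mia3 alone had a second probe set, and neither was 2-fold lower on it (-0.32 for Mia3). Second probe sets at the level were higher for Plod2 (1.26), Colgalt1 (0.19) and Ppib (0.03), and lower for P3h1, Serpinh1, Mia3 and Tmem38b. Plod3, a lysyl hydroxylase, read 5.48 on the hybridized array and 7.0 on the live array. Crtap, a subunit of the complex that hydroxylates prolines of fibrillar collagens, read 9.51 on the hybridized array and 10.93 on the live array. Serpinh1, the collagen chaperone Hsp47, read 9.33 on the hybridized array and 10.65 on the live array, a difference of -1.32, and differed by -0.91 on its second probe set. After control centring 0 of these 14 were 2-fold apart in either direction, where 2.84% of all genes were lower and 31.8% higher. Of 3 genes at the level for processing and crosslinking, as deposited, 1 was 2-fold lower and 0 higher, beside 15.4% and 8.43% of all genes. It was Tgm2, a transglutaminase, at 6.69 on the hybridized array and 8.73 on the live array, with -2.17 on its second probe set.

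Of 13 receptors for the matrix at the level, 3, or 23.1%, were 2-fold lower, 0 were 2-fold higher and 8 were below 0. For all genes at the level the shares were 15.4%, 8.43% and 58.5%. The median of the receptors was -0.12. Itgb5, the integrin chain that pairs with Itgav, differed by -2.12 and by -2.34 on its second probe set. Itga3, part of a laminin receptor, differed by -2.02 and by -1.31 on its second, and Itga5, part of the fibronectin receptor, by -1.22, with its second probe set under the level. Itgb1, the beta chain that both of these pair with, was 0.31 higher on its brightest probe set, with 8.20 on the hybridized array and 7.89 on the live array, and 1.45 higher on its second. Of 6 other matrix glycoproteins at the level, 2, or 33.3%, were 2-fold lower, Fbln1 (-1.17) and Ltbp3 (-1.06), and 0 higher. Fbln1 differed by -0.73 on its second probe set, and the second of Ltbp3 was under the level. After loess 0 of the 6 were 2-fold lower and 1 higher, beside 9.75% and 11.5% of all genes. With probe sets averaged 0 were 2-fold apart, where 11.1% of all genes were lower and 8.5% higher. Of 6 matrix proteases and inhibitors at the level, 0 were 2-fold apart in either direction.

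**Figure D4:**
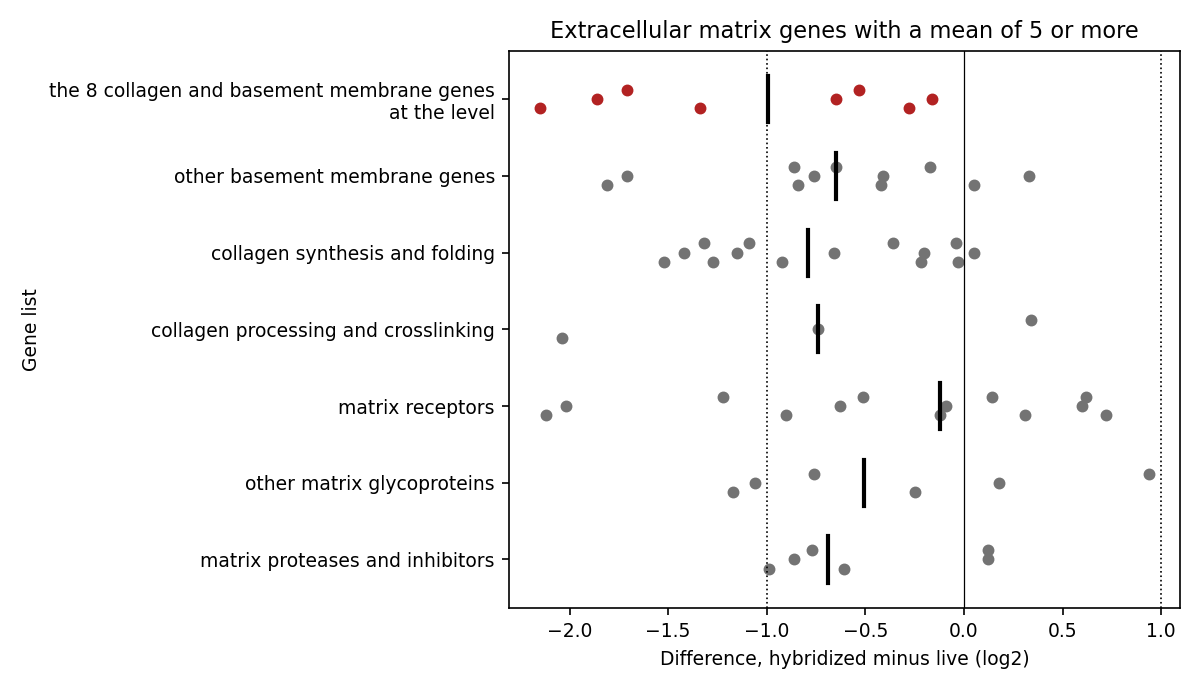
Difference between the hybridized and the live array (horizontal axis, log2) for the genes of each list (rows) that reached a mean log2 value of 5; each point is 1 gene at its brightest probe set and the black bar is the list's median. The vertical spread within a row only separates the points, and Smoc1 stands in both the basement membrane and the glycoprotein rows. Red points are the 8 collagen and basement membrane genes at the level, with 4 left of the lower dotted line at 2-fold, and 0 points lie right of the upper one.

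Markers of the labelled cell type were bright on both arrays. All 8 pluripotency markers were at the level, none was 2-fold apart, and their summed linear signal was 36800 on the hybridized array and 37600 on the live array. Fibroblasts are the usual source of fibrillar collagen. Of 14 fibroblast markers 1 was at the level, Vim, which pluripotent cells also express, at 12.92 on the hybridized array and 13.07 on the live array. The other 13 ran from 1.71 to 4.32 on the hybridized array and from 1.87 to 5.37 on the live array. Among them Dcn, Lum, Postn, Fap and Prrx1 were under 3 on both arrays, while Pdgfrb read 3.62 on the hybridized array and 5.22 on the live array, and Twist1 4.15 on the hybridized array and 5.37 on the live array. The summed linear signal of the 14, almost all from Vim, was 7850 on the hybridized array and 8760 on the live array. Without Vim the other 13, all with means under the level, summed to 99.8 on the hybridized array and 163 on the live array. Below 0 were 11 of these 13, a share not computed over all genes under the level.

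Of 15 markers of primitive and parietal endoderm, 2 were at the level, the keratins Krt8 (-1.48) and Krt18 (0.71). The other 13, among them Gata4, Gata6, Sox17 and Foxa2, ran from 2.21 to 4.18 on the hybridized array and from 2.39 to 4.25 on the live array. Dab2 was the one of these 13 that was 2-fold lower, with 2.61 on the hybridized array and 3.90 on the live array. The summed linear signal of the 15 was 708 on the hybridized array and 1220 on the live array, of which Krt8 made up 338 on the hybridized array and 942 on the live array. The other 14 summed to 370 on the hybridized array and 279 on the live array, so without Krt8 the sum was higher on the hybridized array. Of these 14, Krt18 alone was at the level, with 8.01 on the hybridized array and 7.30 on the live array. Among the 13 under the level, 8 were below 0, a share not computed over all genes under the level. On the control probe sets of Actb, the 5′ end was 1.76 higher and the 3′ end differed by -0.76. For Gapdh the 5′ end was 0.96 higher and the 3′ end differed by -0.85. For Tfrc both ends were higher, by 1.88 at the 5′ end and 1.38 at the 3′ end. The part of these markers and of the 5′ to 3′ balance in the differences above was not tested. In such bulk samples, fewer cells of a type and less RNA per cell cannot be told apart.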

How the data were processed

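The values deposited by the authors, from 1.02 to 14.24, were read as log2 expression per probe set; the base is not stated and follows from the method and the range. GCRMA and affy produced them, per the submitters' processing notes, with versions not given in the sources used here. NuGEN Ovation amplification and biotin labelling followed Trizol LS extraction, per the labels' protocols. Apart from 64 controls among 22690 probe sets, 691 with several genes and 1555 unnamed here were left out. Symbols came from the platform table and were updated through Entrez IDs to RefSeq (GRCm38.p6), where 12369 of 12393 genes matched. Promoter windows came from RefSeq for 6 of the 10 genes. Because the number of arrays, 1 per group, limits the precision, differences carry no p-value. Without detection calls, the level of 5 is a set limit, not a test of presence. Summed linear signals add 2 to the power of each gene's value. The genes and lists were chosen with earlier results of these data known.

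The genes named are all 10 members with every probe set, up to 3 genes per direction and list that were at the level and 2-fold apart, and the fixed partners Lamb1, Nid1, Hspg2, Serpinh1 and Itgb1. Single markers, and genes named only for their second probe set, were named after their values were seen. No genes were ranked by likeness to the members, since 2 arrays give 1 difference per gene. The alternatives were level limits of 4, 7 or none, or of 5 on both arrays, thresholds of 1.5-fold and 4-fold, averaging all probe sets of a gene, dropping those with suffix _x_at, _s_at or _a_at (probes shared between transcripts or genes), centring on each array's median or on 18 hybridization control probe sets, quantile normalization, and loess on level (span 0.3). The steps were tested on simulated data with known shifts, equal for all probe sets of a gene. The noise added was smaller than the spread of 0.73 between probe sets seen here. Control centring and leaving out suffixed probe sets were not simulated. The simulation checked that the steps recover shifts and does not bear on the counts. The software was numpy 2.4.6, pandas 2.3.3, statsmodels 0.14.6 and matplotlib 3.10.9 under Python 3.11.15.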

Additional observations from a re-analysis of the deposited data

How the results depend on the processing

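The count of 4 members 2-fold lower out of 8 was 0 of 4 at a level of 7 (12.2% of all genes), 2 of 6 with the limit of 5 on both arrays (13.9%) and 1 at 4-fold (1.56%). It was 1 of 8 when probe sets were averaged, or 12.5%, near the 11.1% of all genes, and 2 when centred on the hybridization controls (2.84%), where the median of the members was -0.19, against 0.63 for all genes at the level. In the other 7 alternatives for this count it was 3 to 5. It was 3 of 8 after loess (9.75% of all genes) and 5 of 8 at the looser threshold of 1.5-fold (29.9%). In the rest it was 4, where 10.5% to 15.7% of all genes were 2-fold lower, with 4 of 10 without a level limit. By the threshold of each setting, 0 members were higher in all 12, where 1.2% to 31.8% of all genes were. The median of the members lay between -1.01 and -0.41 in the other 9 alternatives run for it. Averaging probe sets gave 10 of 52 other matrix genes 2-fold lower and 1 higher (11.1% and 8.5% of all genes), leaving out suffixed probe sets 10 of 42 and 1 (13.8% and 10.3%), and loess 11 of 52 and 2 (9.75% and 11.5%). A threshold of 1.5-fold gave 27 lower and 4 higher of 52 (29.9% and 17.5%), and 4-fold gave 3 and 0 (1.56% and 1.2%). Where a cause is not given by the setting itself, the cause was not tested. Values near the lower end of the scale, such as those of Col1a2 and Col3a1, limit what can be said of these genes. No paired analysis was possible because each group has 1 array.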
